A study of Mus musculus with 7 samples.

Results

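The genes described here encode the proteins of the cytosolic ribosome. They were taken by symbol from the protein-coding genes of the GENCODE annotation of the mouse build NCBIM37 (mm9). A gene was a member when its symbol began with Rpl or Rps and a digit, or was Rplp0, Rplp1, Rplp2 or Rpsa. The prefix matched 150 symbols, and removal of 10 S6 kinases and of 55 processed copies whose names end in -ps, with or without a number, left 85 members of the 22350 protein-coding genes. Of these, 51 carried large subunit and 34 small subunit symbols, and they lay on 19 chromosomes, with 4 members on the X chromosome. The symbol rule also took in a few genes that are not core components, such as Rps19bp1, a protein that binds Rps19, and the tissue-restricted paralogues Rpl3l, Rpl10l and Rpl39l.

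ChIP-seq was used to map the transcription factor Runx3 and monomethylated lysine 4 of histone H3 (H3K4me1), a mark of enhancers, in unstimulated splenic CD8-TC of WT ICR mice, cells of 18 mice being combined. The 7 libraries comprised 3 Runx3 libraries from 2 repeats (one repeat was given as 2 read sets), 2 H3K4me1 libraries and 2 control libraries made with non-immune serum (NIS), each experiment starting from cells positively selected with anti-CD8 beads to over 95% purity per the labels. All groups shared strain, tissue and selection, and none carried a mutation or a treatment. The deposited result was 1 list of regions per antibody, called on joined repeats against NIS, with 4934 Runx3-bound and 76705 H3K4me1-marked regions. The lists gave positions without height, read count or replicate value, so how many reads support each region is unknown, no value below has a replicate error, and no difference between conditions could be tested. Intervals in parentheses are 95% intervals (Wilson for shares, order statistics for medians) that cover counting error over genes or regions, which are not independent replicates.

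The cell type was checked by H3K4me1 near marker genes. An H3K4me1-marked region lay within 5 kb of the TSS of 8 of 8 T cell markers, but also of 6 of 6 B cell, 5 of 6 myeloid and 2 of 5 erythroid markers. The positions of the mark therefore did not separate T cells from B or myeloid cells, and the part of the few other cells left by the selection was not tested. A Runx3-bound region lay within 5 kb of 4 of 8 T cell, 1 of 6 B cell, 1 of 6 myeloid and 0 of 5 erythroid markers, the last allowing a share of up to 60.0% (3 counts of 5), against 7.70% of all protein-coding genes. The T cell markers Cd3d and Cd3g shared a region that was counted for both. The myeloid marker was Itgam, counted through another annotated TSS 57501 bp or so downstream of the start of its transcript with the longest coding sequence.

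Ribosomal proteins are needed in equal numbers, and their genes are active in all cells and among the most heavily transcribed of a lymphocyte. Resting T cells hold few ribosomes and raise their number when they are activated, before they divide. The promoters of these genes are short and CpG-rich, transcription starts at a C within a pyrimidine tract, and the resulting terminal oligopyrimidine (TOP) at the front of the mRNA lets the cell adjust translation of all of them together. H3K4me1 marks enhancers and also the flanks of active promoters, where the nucleosomes next to the start site carry trimethylation in its place.

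Runx3-bound regions had their midpoint within 500 bp of the reference TSS, which is the start of the protein-coding transcript with the longest coding sequence, at 9 members. These 9 were Rpl3, Rpl13a, Rpl18, Rpl22, Rpl30, Rpl37, Rps3a, Rps12 and Rps19. The RUNX motif was searched on both strands as TGTGGT, as TGTGGC, as TGCGGT and as TGCGGC. The 30 bases around the motif nearest to the midpoint are shown for each of the 9, read in the direction of transcription from the NCBIM37 genome, because they hold the letters of the factor's motif that lie closest to the centre of each bound region. Capitals mark RUNX motifs on either strand.
Rpl3, chr15:79913758-79913787, minus strand: tcgctctctatcTGCGGCgTGTGGCggcga
Rpl13a, chr7:52391880-52391909, minus strand: caagctgaggtcTGCGGCcgcgccacttgt
Rpl18, chr7:52970629-52970658, plus strand: ccccgaatccgaGCCGCAccaatgagagga
Rpl22, chr4:151699989-151700018, plus strand: cgccatggcgccTGTGGTtagtatggctcc
Rpl30, chr15:34373077-34373106, minus strand: tagcaaccaactACCGCAgactactctcgc
Rpl37, chr15:5066462-5066491, plus strand: ggggagggcggaGCCACAgcgccaggcacg
Rps3a, chr3:85946745-85946774, minus strand: ggggcaacggaaACCACAagaaacctgaag
Rps12, chr10:23507195-23507224, minus strand: tcgtgggacctcTGTGGTccacgccccctg
Rps19, chr7:25669195-25669224, plus strand: aaggtggtggtgGCCACAtgtcatagtgcc
At 5 of the 9 genes, Rpl18, Rpl30, Rpl37, Rps3a and Rps19, the motif was read on the strand opposite to transcription. Its centre lay within 10 bp of the midpoint of the region at Rpl30 (6 bp) and Rpl37 (2 bp). At Rpl3 the window held a second motif a single base after the first. The variant TGTGGT was the one nearest to the midpoint at Rpl22, Rps12 and Rps3a. At Rpl18, Rps19 and Rpl22 the nearest motif lay 264 bp, 110 bp and 96 bp from the midpoint.

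For 4 of these genes the 250 bases before the reference TSS held a RUNX motif and no annotated exon, and they are printed in the direction of transcription with RUNX motifs in capitals, because the Runx3-bound region overlapped them (NCBIM37).
Rpl37, chr15:5066363-5066612, plus strand: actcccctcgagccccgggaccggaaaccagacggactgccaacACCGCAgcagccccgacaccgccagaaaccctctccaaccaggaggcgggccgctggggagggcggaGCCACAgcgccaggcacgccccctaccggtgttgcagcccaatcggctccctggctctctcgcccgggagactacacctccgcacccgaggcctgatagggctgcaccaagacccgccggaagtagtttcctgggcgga
Rps3a, chr3:85946625-85946874, minus strand: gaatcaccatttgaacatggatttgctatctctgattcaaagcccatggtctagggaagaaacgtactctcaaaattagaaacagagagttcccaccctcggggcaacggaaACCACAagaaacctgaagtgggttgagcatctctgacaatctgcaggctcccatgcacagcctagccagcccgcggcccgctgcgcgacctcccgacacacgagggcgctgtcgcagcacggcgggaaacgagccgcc
Rps12, chr10:23507016-23507265, minus strand: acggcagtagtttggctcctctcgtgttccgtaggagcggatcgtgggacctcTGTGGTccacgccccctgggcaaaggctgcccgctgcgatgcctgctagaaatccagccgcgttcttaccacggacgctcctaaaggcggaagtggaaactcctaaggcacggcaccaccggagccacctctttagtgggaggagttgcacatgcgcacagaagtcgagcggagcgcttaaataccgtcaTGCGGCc
Rpl30, chr15:34373396-34373645, minus strand: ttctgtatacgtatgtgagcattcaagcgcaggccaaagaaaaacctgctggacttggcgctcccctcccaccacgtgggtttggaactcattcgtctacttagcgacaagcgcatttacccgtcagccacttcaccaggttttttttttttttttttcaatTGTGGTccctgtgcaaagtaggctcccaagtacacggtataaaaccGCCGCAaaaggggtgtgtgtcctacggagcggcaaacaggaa
Rpl37 held an ACCGCA and a GCCACA in this stretch, both on the opposite strand. Rps3a held a single ACCACA. Rps12 held TGTGGT near the far end and TGCGGC directly before the TSS. Rpl30 held TGTGGT and, nearer to the TSS, GCCGCA.

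A Runx3-bound region had its midpoint within 5 kb of an annotated TSS at 14 of 85 members (16.5%, 10.1 to 25.8%), against 7.70% of all protein-coding genes and 10.7% of genes with CpG-rich promoters. CpG-rich promoters were those with an observed over expected CpG of at least 0.6 from 250 before to 50 bases after the reference TSS. The share among genes with CpG-rich promoters fell inside the members' interval. Within 500 bp of the reference TSS the count was 9 of 85 members (10.6%, 5.67 to 18.9%), against 3.15% of all genes and 5.20% of genes with CpG-rich promoters. Widening the limit to 1 kb added no member, while the background rose to 3.77% of all genes and 6.15% of genes with CpG-rich promoters. Runx3 and H3K4me1 were both within 5 kb at 14 of 85 members, against 7.53% of all genes. Among genes with Runx3 within 5 kb, H3K4me1 was also there at 14 of 14 members and at 1683 of 1720 of all protein-coding genes. A region within 5 kb was found at 8 of 51 large subunit genes (15.7%, 8.17 to 28.0%) and 6 of 34 small subunit genes (17.6%, 8.35 to 33.5%). Mitochondrial ribosomal protein genes, which encode the separate ribosome of mitochondria, had such a region at 10 of 77 (13.0%) and genes with proteasome symbols at 7 of 42 (16.7%). The comparison lists were taken by symbol, and the proteasome list held a pair of symbols that the annotation gives 2 entries each and Psmc3ip, which is no subunit. With 1 entry per symbol and without Psmc3ip the count was 7 of 39 (17.9%).

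**Figure D1:**
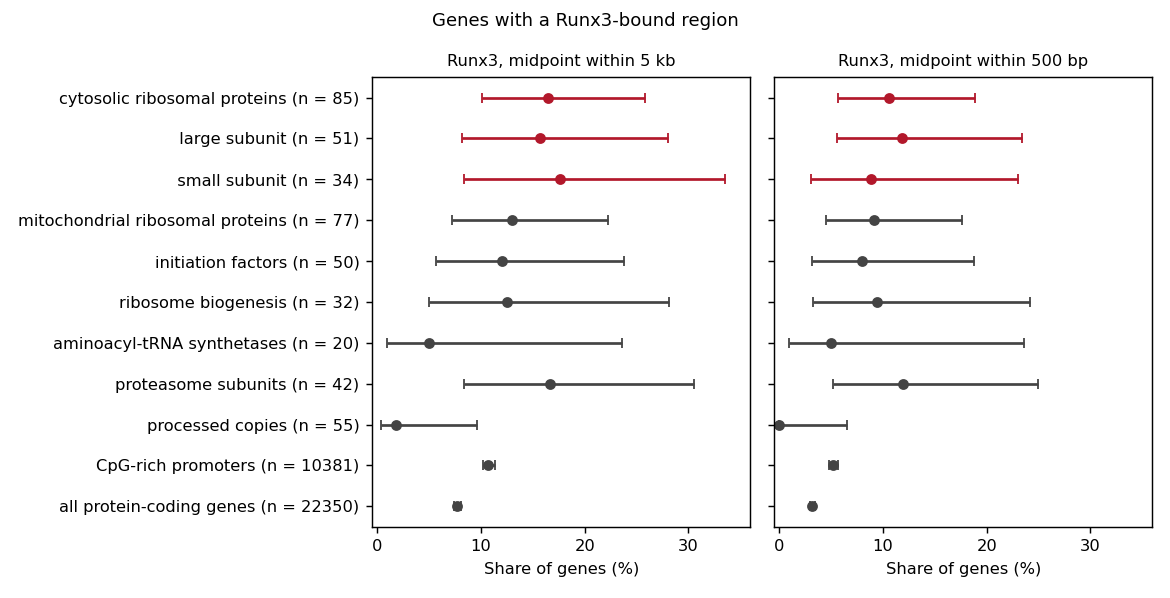
Share of genes (%, x axis) with a Runx3-bound region whose midpoint lay within 5 kb of any annotated TSS (left) or within 500 bp of the reference TSS (right), by gene list (y axis). Points are shares and bars are 95% Wilson intervals, which cover counting error only. The members stood at 16.5% and 10.6% and all protein-coding genes at 7.70% and 3.15%, and the intervals of the members overlapped those of the mitochondrial ribosomal proteins and of genes with proteasome symbols. Lists are by symbol, with each annotated entry counted.

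Among the large subunit genes, Rpl3, a protein next to the peptidyl transferase centre, had a Runx3-bound region at chr15:79913424-79914197 whose midpoint lay 26 bp downstream of the TSS, in a non-coding exon. Rpl22, an RNA-binding protein that the development of αβ T cells needs, had a region of 575 bp at chr4:151699620-151700194 with its midpoint 55 bp upstream of the reference TSS. Rpl37 had a region of 882 bp at chr15:5066039-5066920, centred 134 bp upstream, that overlapped no H3K4me1-marked region. It began 574 bp upstream of the TSS, close to a marked region that ended 577 bp upstream. Rpl30 had a region of 1024 bp at chr15:34372574-34373597, which was centred 310 bp downstream of the reference TSS but 71 bp from another annotated start of the gene. These 4 Runx3-bound regions were nearest to the TSS of the ribosomal protein gene itself.

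At Rpl13a and Rpl18 a region near the member also lay next to the TSS of a neighbour. The region at Rpl13a, a protein that leaves the ribosome to silence mRNAs in interferon-treated cells, lay at chr7:52391442-52392304. Its midpoint was 272 bp upstream of the reference TSS of Rpl13a, 86 bp from its nearest annotated TSS and 71 bp from the TSS of Flt3l, which encodes a cytokine for dendritic cell precursors. Rpl18 had 2 regions, centred 81 bp and 2549 bp downstream of its TSS at chr7:52970535-52971281 and chr7:52972903-52973850. The second was 65 bp from another annotated TSS of Rpl18 and 4 bp from a TSS of Sphk2, a sphingosine kinase that overlaps Rpl18. Position alone could not tell which gene such a region belongs to.

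Among the small subunit genes, Rps3a had a region of 840 bp at chr3:85946318-85947157, centred 113 bp upstream of the TSS. Rps12 had a region of the same width at chr10:23506822-23507661, centred 226 bp upstream. Rps19, the gene most often mutated in Diamond-Blackfan anaemia, had the widest region of all 16 at 1191 bp, at chr7:25668725-25669915. Its midpoint was 335 bp upstream of the reference TSS and 70 bp from the first annotated start of the gene. No H3K4me1-marked region overlapped the bound region, which ended 260 bp downstream of the reference TSS, while a marked region began 317 bp downstream. For these 3 genes no other gene started within 5 kb of the midpoint, the nearest being 1110021L09Rik at 9551 bp from the region of Rps12.

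**Figure D2:**
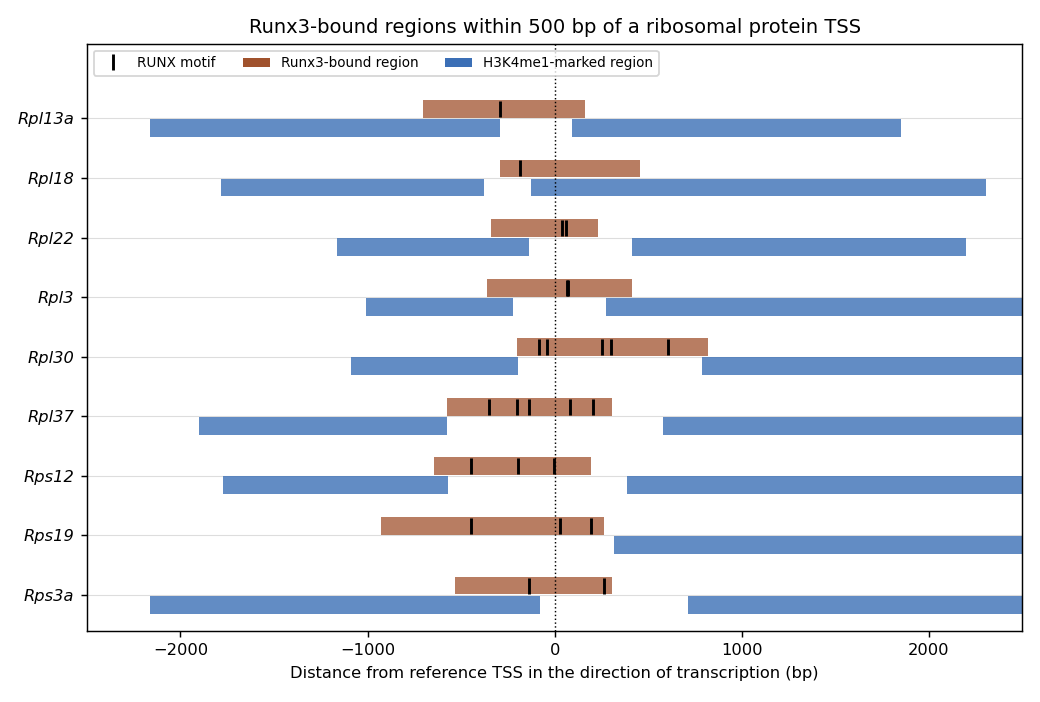
Runx3-bound regions (brown), H3K4me1-marked regions (blue) and RUNX motifs inside the Runx3-bound regions (black ticks) at the 9 members with a Runx3 midpoint within 500 bp of the reference TSS. The x axis gives the distance from that TSS in bp in the direction of transcription, within 2500 bp. In 7 of 9 genes the midpoint of the brown bar fell outside every blue bar, the other 2 being Rpl18 and Rps3a.

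Other regions lay farther from a member's TSS. Rps15a had a region 2646 bp downstream of the reference TSS, in an intron of the gene, and a second region 3830 bp upstream. Rpl35a, like Rps19 a gene of Diamond-Blackfan anaemia, had a region 3187 bp upstream in an intron of Iqcg. The region 3617 bp upstream of Rpl36 was 7 bp from the TSS of 2410015M20Rik. The region of Rps18 was the one nearest to the 5 kb limit. It stood 4710 bp from an annotated TSS of Rps18, in an intron of Wdr46, and was nearer to B3galt4 at 3657 bp. The members next outside the limit were Rpl14 at 5661 bp, Rps19bp1 at 9038 bp, Rps25 at 10396 bp, Rps9 at 10777 bp and Rpl23a at 14394 bp from the reference TSS to the nearest midpoint. Over all 85 members the median distance to the nearest Runx3 midpoint was 73940 bp (43080 to 128061 bp), against 148472 bp over all protein-coding genes and 115259 bp over those with CpG-rich promoters.

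An H3K4me1-marked region overlapped 14 of the 16 Runx3-bound regions near members (87.5%, 64.0 to 96.5%), against 90.6% of the 1588 near any protein-coding gene. The midpoint was inside H3K4me1 in 7 of 16 (43.8%, 23.1 to 66.8%), against 61.6%. Of the 7 regions more than 500 bp away, 5 were centred in the mark and covered by it over their whole width, among them those at Rps15a, Rps18 and Rpl35a. Of the 9 near the TSS, those of Rpl18 and Rps3a had their midpoint inside. That was 2 of 9 (22.2%, 6.32 to 54.7%), against 34.2% of the 632 Runx3-bound regions within 500 bp of any reference TSS. The NIS libraries served as the common control of both lists, and their part in the overlap was not tested.

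H3K4me1 was found at nearly all members. A marked region had its midpoint within 5 kb of a TSS at 82 of 85 members (96.5%, 90.1 to 98.8%), against 62.6% of all protein-coding genes and 89.3% of genes with CpG-rich promoters. Like shares were found in mitochondrial ribosomal protein genes (98.7%) and in genes with initiation factor (98.0%) and proteasome symbols (97.6%). The 3 without were Rpl10l and Rpl39l, paralogues known from testis, and Rps4y2. Their nearest midpoints lay 1017066 bp, 135947 bp and 9330 bp away, and the member farthest inside the limit was Rpl3l, a muscle paralogue, at 3230 bp. Rpl22l1, the paralogue of Rpl22, and Rps27l, a p53-regulated paralogue of Rps27, each had marked regions on both sides of the TSS. In all, 216 H3K4me1-marked regions lay near members. Rps9 had the most with 6, and Rpl8, Rpl13a and Rpl24 had 5 each. Their median width was 1232 bp (1110 to 1384 bp, range 377 to 6817 bp), against 1020 bp (1011 to 1030 bp) near any protein-coding gene.

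**Figure D3:**
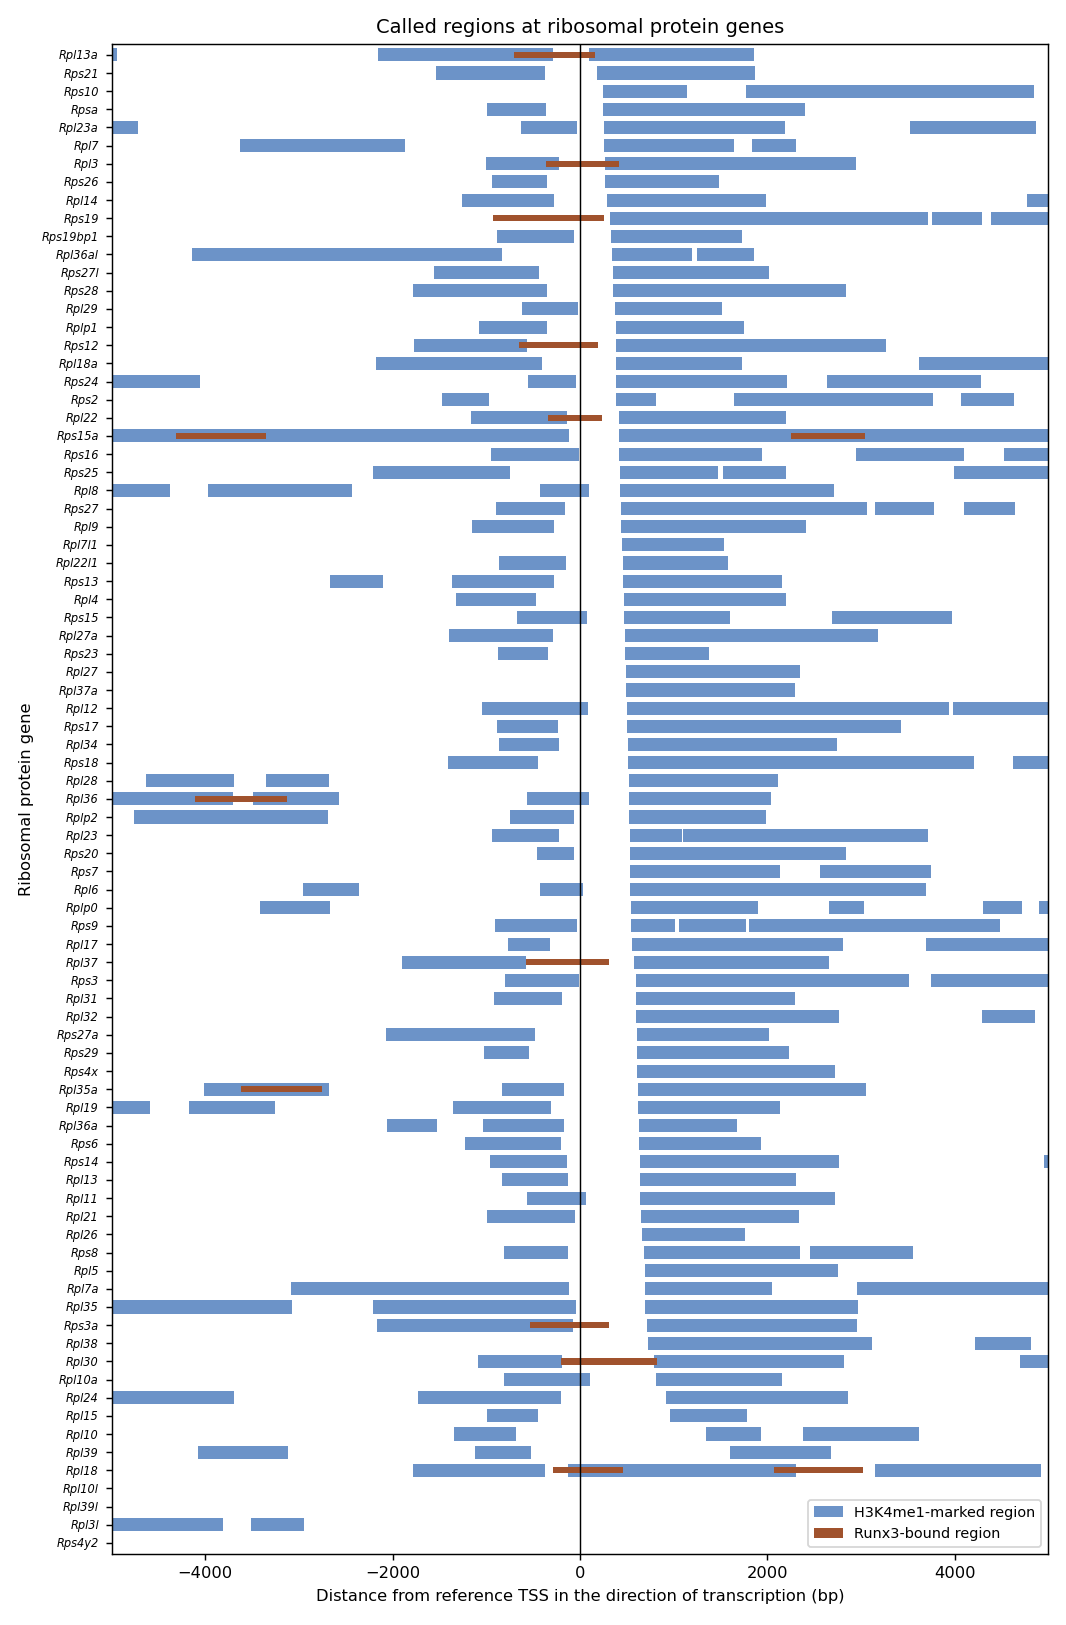
H3K4me1-marked regions (blue) and Runx3-bound regions (brown) within 5 kb of the reference TSS of 83 of the 85 members. The x axis is the distance from the TSS in bp in the direction of transcription, and each row is a gene, ordered by the distance to the first H3K4me1-marked region that begins downstream of the TSS. Over all 85 members the TSS itself is free of H3K4me1 in 77, and a marked region follows downstream in all but 4, which are Rpl10l, Rpl39l, Rps4y2 and Rpl3l.

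The TSS itself was seldom marked. It lay inside an H3K4me1-marked region at 8 of 85 members (9.41%, 4.85 to 17.5%), which were Rpl6, Rpl8, Rpl10a, Rpl11, Rpl12, Rpl18, Rpl36 and Rps15, against 17.0% of all genes and 17.9% of genes with CpG-rich promoters. At 100 bp downstream of the TSS 3.53% of members were covered, against 15.5% of all genes, 16.4% of genes with CpG-rich promoters and 11.7% of mitochondrial ribosomal protein genes. At 61 of 85 members (71.8%, 61.4 to 80.2%) the TSS was uncovered and had a marked region on each side within 5 kb, against 32.1% of all genes and 59.5% of genes with CpG-rich promoters. Another 12 members (14.1%) had a marked region downstream alone, among them Rpl5, Rpl26, Rpl27, Rpl38, Rps4x, Rps7 and Rps19, against 8.04% of all genes and 8.93% of genes with CpG-rich promoters. A marked region upstream alone was found at 1 member, Rpl3l (1.18%), against 4.14% and 2.34%. Rpl5 and Rpl11, which bind Mdm2 when ribosome assembly fails and so raise p53, differed in this respect: the TSS of Rpl11 was covered, while Rpl5 had its single marked region, of 2066 bp, starting 692 bp downstream. At Rps14, the small subunit gene of the 5q- syndrome, marked regions began 136 bp upstream and 639 bp downstream of an uncovered TSS. Counted by midpoints, 69 of 85 members had H3K4me1 on both sides within 5 kb (81.2%, 71.6 to 88.1%), against 42.3% of all genes and 70.7% of genes with CpG-rich promoters. Among mitochondrial ribosomal protein genes this share was 88.3%, and among genes with proteasome symbols 69.0%.

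The downstream flank was the more constant. The share of members covered by H3K4me1 reached 91.8% (78 of 85) at 960 bp downstream of the TSS and 67.1% at 554 bp upstream. The 7 members not covered at 960 bp were Rpl10, Rpl39, Rps2 and the paralogues Rpl3l, Rpl10l, Rpl39l and Rps4y2. Over all protein-coding genes the highest shares were 41.2% at 835 bp downstream and 37.9% at 546 bp upstream, and in genes with CpG-rich promoters 68.5% and 61.6%. Coverage of the members remained at 88.2% at 1500 bp and at 70.6% at 2000 bp downstream. The mitochondrial ribosomal protein genes peaked at 98.7% at 852 bp downstream and 75.3% upstream, with 20.8% covered at the TSS.

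**Figure D4:**
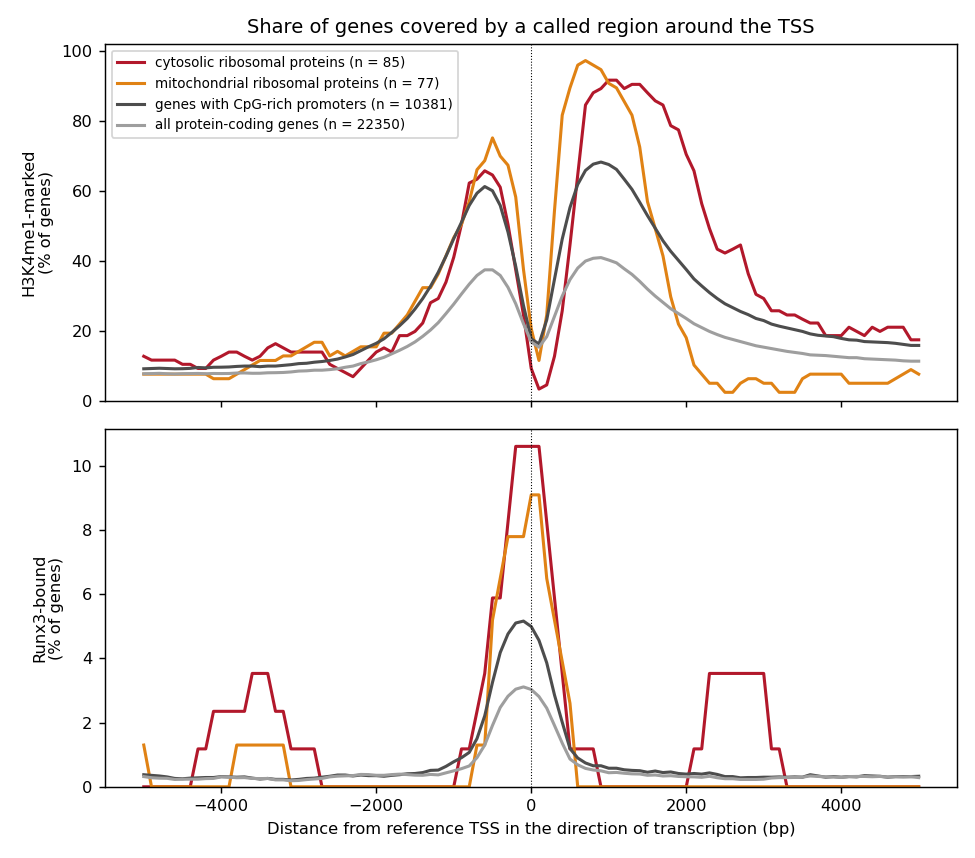
Share of genes (%) covered by an H3K4me1-marked (top) or Runx3-bound region (bottom) at each distance from the reference TSS (x axis, bp, in the direction of transcription), for the members, mitochondrial ribosomal protein genes, genes with CpG-rich promoters and all protein-coding genes. In the members H3K4me1 fell to 9.41% at the TSS between maxima of 67.1% and 91.8%, and Runx3 was highest at the TSS at 10.6%, each step of the red line in the lower panel being 1 gene.

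At the 61 members with a marked region on each side, the gap between the facing edges had a median of 774 bp (731 to 809 bp) and ranged from 287 to 3213 bp. The median over all 7168 genes of this kind was 747 bp (734 to 761 bp). The gap of the mitochondrial ribosomal protein genes was 453 bp (425 to 563 bp, 52 genes), an interval that did not meet that of the members. The gap of the genes with initiation factor symbols was 816 bp (701 to 1101 bp, 37 entries) and that of genes with proteasome symbols 662 bp (470 to 802 bp, 24 entries), and both intervals overlapped that of the members. Without Eif4enif1 and the Argonaute genes that carry the symbol Eif2c the former was 813 bp (691 to 1101 bp, 34 genes), and with the proteasome list reduced as above the latter was 662 bp (470 to 802 bp, 22 genes). The gap lay mostly downstream of the TSS: its downstream edge stood at a median of 510 bp (436 to 551 bp), against 416 bp over all genes, and its upstream edge at 238 bp (176 to 339 bp), against 268 bp.

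**Figure D5:**
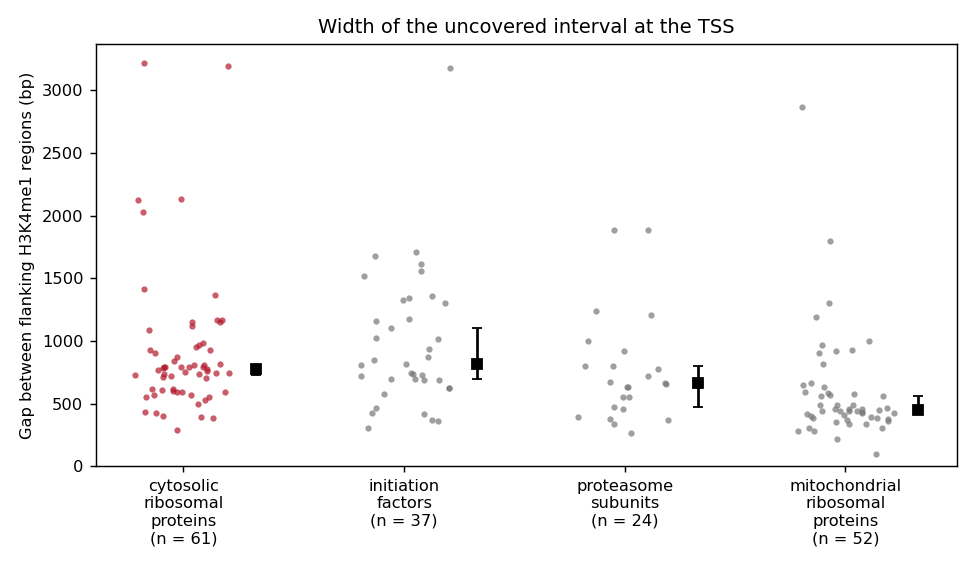
Gap in bp (y axis) between the H3K4me1-marked regions on either side of an uncovered TSS, by gene list. Lists were taken by symbol, each point is 1 annotated gene entry, squares are medians and bars are 95% order-statistic intervals. The medians were 774 bp in cytosolic and 453 bp in mitochondrial ribosomal protein genes.

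The marked regions after the gap were wider than those before it. Their median width was 1685 bp (1513 to 1932 bp) downstream and 861 bp (722 to 980 bp) upstream, and the downstream region was the wider in 49 of 61 members (80.3%, 68.7 to 88.4%), against 72.3% of all genes with a gap. Among the widest regions near members, at a gap or not, were those near Rpl11 (5800 bp), Rps15a (5620 bp), Rps19 (5309 bp) and Rps18 (3812 bp). Of these, only the region of Rps15a bordered a gap at the reference TSS. The regions of Rps19, Rps18 and Rpl11 began 4385 bp, 4623 bp and 20839 bp downstream of it, and were counted through another annotated TSS. Ribosomal protein genes are short. Their median length was 3243 bp, against 15428 bp over all genes, and H3K4me1 covered a median of 55.6% of the gene (51.4 to 62.5%), against 4.13%. Genes of like length that also had a gap at the TSS were covered over 42.7% (40.0 to 45.3%, 488 genes). The highest cover was 86.7% at Rps19, followed by 85.9% at Rpl12 and 85.1% at Rpl8.

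Promoter sequences were compared from 250 bases before to 50 after the reference TSS. A RUNX motif was present in 43 of 85 members (50.6%, 40.2 to 61.0%), against 45.6% of all promoters and 50.7% of CpG-rich ones. It was present in 7 of the 9 promoters with a Runx3-bound region within 500 bp and in 36 of the other 76 (47.4%). The variant TGTGGT was present in 4 of the 9 (44.4%, 18.9 to 73.3%) and in 8 of the 76 (10.5%), and in 15.2% of all and 9.70% of CpG-rich promoters. TGCGGC was likewise in 4 of the 9, and in 20 of the 76 (26.3%), 14.8% of all and 26.2% of CpG-rich promoters. All 16 Runx3-bound regions near members held at least 1 RUNX motif, as did 93.8% of the 1588 near any gene. The letters of the ETS motif, CCGGAAG on either strand, were in 25 promoters (29.4%), against 11.0% of all and 19.2% of CpG-rich promoters and 36.4% of those of mitochondrial ribosomal protein genes. The SP1 motif GGGCGG was in 54.1% of the members, against 44.6% of all, 73.7% of CpG-rich and 48.1% of mitochondrial ribosomal protein promoters. TATAAA was in 11.8% of the members, against 13.4% of all, 5.75% of CpG-rich and 9.09% of mitochondrial ribosomal protein promoters. The E-box CACGTG was in 11.8% of the members, against 7.74% of all, 11.2% of CpG-rich and 7.79% of mitochondrial ribosomal protein promoters. The YY1 motif AAGATGGC was in 7.06% of the members, against 3.43% of all and 5.15% of CpG-rich promoters and 18.2% of those of mitochondrial ribosomal protein genes. All were searched on both strands, and end bases of different motifs can overlap. A match is a description of the sequence, not a bound site.

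Pyrimidine runs at the start site were common. A run of at least 8 C or T bases lay within 25 bp of the reference TSS in 34 of 85 members (40.0%, 30.2 to 50.6%), against 19.0% of all protein-coding genes, 16.2% of those with CpG-rich promoters and 16.9% of mitochondrial ribosomal protein genes. The annotated TSS base was a C in 20 of 85 members (23.5%), against 15.6% of all genes and 17.3% of genes with CpG-rich promoters. Windows of 30 bases, of which 20 lie before the TSS base, are printed for 3 members with long runs and for the Runx3-bound Rps12 and Rpl30, which have none in this window, to show the tract from which TOP mRNAs start. Capitals mark the longest pyrimidine run.
Rpl14, chr9:120480612-120480641, plus strand: cacggcagggcgggCCCTCTCTCTTCTCgc
Rps23, chr13:91062758-91062787, plus strand: tgcaCCTCCTCTCTCTTTCTCTTgggcccg
Rplp1, chr9:61762336-61762365, minus strand: gcgcgcaggcgtatatgaTCTTTTCCTCag
Rps12, chr10:23507006-23507035, minus strand: TTaaataccgtcatgcggccaccgccggcc
Rpl30, chr15:34373386-34373415, minus strand: tacggagcggcaaacaggaagaTCagcggc
The runs at Rpl14, Rps23 and Rplp1 were 14, 19 and 10 bases long. Those of Rps12 and Rpl30 reached 2 bases in these windows, although Rps12 had a run of 11 bases that was complete only in the wider window of 25 bp on each side. The windows follow the annotated starts and hold no information on starts used elsewhere. Among the 9 members with Runx3 at the TSS, 4 had a run of at least 8 bases within 25 bp, and among the other 76, 30 had one (39.5%).

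Ribosomal protein genes often carry small nucleolar RNAs, guides of rRNA modification, in their introns. Such a gene was annotated on the same strand inside 30 of 85 members (35.3%), against 1.20% of all protein-coding genes and 1.88% of those with CpG-rich promoters. Hosts were 7 of the 14 members with a Runx3-bound region within 5 kb and 23 of the 71 without. The 9 with a region within 500 bp held 6 of these 7 hosts (Rpl3, Rpl13a, Rpl30, Rpl37, Rps3a and Rps12). At 9 of 85 members (10.6%) the reference TSS of a protein-coding gene on the other strand lay within 1000 bp upstream, against 7.17% of all genes and 13.4% of genes with CpG-rich promoters. This held for 2 of the 14 members with a Runx3-bound region within 5 kb and for 7 of the 71 without. Members can lie next to each other, as Rps2 and Rpl3l did, and the regions around them are then counted for both.

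Because the lists rest on uniquely aligned reads, sequence copied elsewhere in the genome can hide regions. Within 1 kb of the TSS a median of 93.8% of 40-mers was unique in the members, against 99.3% over all genes. The lowest values were 64.8% at Rps2, 73.8% at Rpl37a and 79.5% at Rpl10l. None of these 3 had a Runx3-bound region within 5 kb, as was so for 71 of all 85 members. Among members with at least 80% unique 40-mers, 14 of 82 had one (17.1%), against 16.5% of all members.

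Genes that work with the ribosomal proteins were described by the same counts. Fau and Gnb2l1, ribosomal components with other symbols, both had an uncovered TSS between marked regions, and Fau had a Runx3-bound region 3392 bp downstream. The 11 other TOP mRNAs all had H3K4me1 within 5 kb, and 1 of them (Vim, which encodes vimentin) had a Runx3-bound region. A Runx3-bound region within 5 kb, found at 7.70% of all genes, lay near 6 of 50 genes with initiation factor symbols, and near 5 of 45 (11.1%) without the Argonaute genes and Eif4enif1. It was found at 0 of 7 elongation factor genes, which allows a share of up to 42.9% (3 counts of 7), 1 of 20 aminoacyl-tRNA synthetase genes (Farsb) and 4 of 32 ribosome biogenesis genes (Nop2, Nop56, Sbds and Utp14a). Of 12 genes that control ribosome supply, 1 had a region, Rptor, a subunit of the mTOR complex, with the midpoint 262 bp upstream of its TSS.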

How the data were processed

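ChIP-seq of Runx3, H3K4me1 and NIS was carried out on splenic CD8-TC. Per the labels and the study's methods, fragments of about 300 bp were sequenced as reads of 40 to 42 bp, aligned to mm9 with ELAND (the submitters' processing notes also name CASAVA 1.6 and 1.7), restricted to unique alignments, joined over repeats and called with MACS against NIS after scaling to the smaller set. The unit deposited by the authors is a position: chromosome, start and end of each called region, with no other measurement. How many reads support each region is therefore unknown.

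Starts were moved by 1 bp to browser coordinates. Regions were compared with the GENCODE annotation and sequence of NCBIM37, on chromosomes 1 to 19 and X, with Python 3.11.15, numpy 2.4.6, scipy 1.17.1, numba 0.67.0 and pysam 0.24.0, and drawn with matplotlib 3.10.9. Distances within 5 kb run from region midpoints to the TSS of any transcript. Overlap needed 1 bp. Profiles, gaps, motifs and divergent starts used the reference TSS. Uniqueness of 40-mers was counted over the whole genome, both strands. The procedures were tested on simulated data. No test was run, because there are no values per library.

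The members and lists were chosen with earlier results of these data known. Named were all members with Runx3 within 5 kb, those without H3K4me1, the 5 with the most (ties beyond 5 regions each left out) and the 5 with the widest marked regions, up to 5 just outside 5 kb, Runx3-bound genes of the lists for ribosomal components, TOP mRNAs and ribosome supply, and Rpl5, Rpl11, Rps14, Rps19, Rpl22 and Rpl22l1. Other names were chosen after their values were seen. Alternatives concerned distance, TSS, overlap, merging within 1000 bp, width, paralogues, autosomes and mappability. Reduced comparison lists were added after the data were seen. Some genes and sequences are not reported here.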

Additional observations from a re-analysis of the deposited data

How the results depend on the processing

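No paired analysis was possible because the authors called regions on joined repeats, which leaves no value per replicate. Of 35 alternative settings, 24 moved the value by less than its 95% interval and 11 moved it further. The share of members with a Runx3-bound region was among the former throughout, its interval being wide (10.1 to 25.8%). It ranged from 10.6% with 1 kb to 18.8% with 10 kb. With each region counted for its nearest TSS alone it was 11.8% (10 of 85). With 1 kb in place of 5 kb, the share with H3K4me1 was 80% and the median width of marked regions 934 bp, and with 10 kb the width was 1091 bp. With any base within 500 bp counted, 81.2% of members had H3K4me1 at the TSS. With neighbours within 1000 bp merged, the share with a covered TSS was 65.9%, that with midpoints on both sides 23.5% and the median width 2774 bp, since merging closes gaps of that size. With 2 kb on each side, 68.2% of members had both. The share of Runx3-bound regions overlapping H3K4me1 was 56.2% with at least 50% covered and 43.8% with the midpoint inside. A RUNX motif lay in 88.2% of members with 1000 bases before the TSS, against 83.3% of all genes. The uncovered TSS and its gap therefore depend on regions being taken as deposited. Depth per region is unknown, and a region absent from a list may have been missed at the depth sequenced.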

Other observations

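The 55 processed copies of ribosomal protein genes that the annotation lists as protein-coding, and that the symbol rule removed, were described by the same counts. H3K4me1 lay within 5 kb of 12 (21.8%), against 62.6% of all protein-coding genes. None had a covered TSS, which allows a share of up to 5.45% (3 counts of 55), against 17.0%. An uncovered TSS between marked regions was found at 4 (7.27%), against 32.1%, with gaps of 1613 to 7214 bp. A Runx3-bound region lay near 1 (1.82%), Rpl27a-ps1, 3502 bp upstream, against 7.70%. Within 1 kb of their TSS a median of 77.8% of 40-mers was unique (73.5 to 81.0%), against 93.8% in the 85 genes kept, and the part of this in the counts was not tested.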
